A study of Rattus norvegicus with 16 samples.

Results

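Matrix metalloproteinases (MMPs) and the tissue inhibitors of metalloproteinases (TIMPs) were examined in the left ventricle of rats from 2 lines that were bred for opposite running capacity. The members were the inhibitors Timp1, Timp2, Timp3 and Timp4, the secreted proteases Mmp2, Mmp3 and Mmp9, and the membrane-type proteases Mmp14 and Mmp15. They were found by exact gene symbol in the annotation table of the array, which gave 9 of 14217 genes and 16 of 31042 probe sets. Timp3 had 4 probe sets, Timp2, Mmp2, Mmp9 and Mmp14 had 2 each, and Timp1, Timp4, Mmp3 and Mmp15 had 1 each. The probe set with the highest mean over all arrays stood for its gene, and every probe set is reported.

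RNA of 1 left ventricle per array was measured on 16 Affymetrix rat expression arrays. All rats were females of about 7 months from generation 16 of lines started from the N:NIH stock, with breeders chosen by a treadmill test at about 11 weeks of age. The line selected upwards is named High Capacity Runners (HCR) and that selected downwards Low Capacity Runners (LCR), and each supplied 4 trained and 4 sedentary rats. The groups were HCR trained (rats 3, 4, 5 and 6), HCR sedentary (rats 3, 4, 5 and 6), LCR trained (rats 1, 2, 3 and 4) and LCR sedentary (rats 2, 3, 5 and 6), with the numbers taken from the sample titles. Trained rats ran uphill on a treadmill for 8 weeks, 5 days a week and 1.5 hours a session, with 8-minute intervals at 85 to 90% of maximal oxygen uptake and 2-minute recoveries at 50 to 60%. The lines were bred apart, so a difference between them covers every difference that arose during breeding, running capacity among them.

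MMPs are zinc-dependent proteases that are made as inactive proenzymes and cut collagens, proteoglycans and other proteins around cells. TIMPs occupy the active site of the mature enzymes, and the balance between both families sets how fast the extracellular matrix of the heart is turned over. The inhibitors also have roles of their own: TIMP2 helps MMP14 activate the proenzyme of MMP2 at the cell surface, and TIMP3, which binds to the matrix, also inhibits ADAM17 and related proteases. Much of this control acts on the proteins, which the arrays did not measure.

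The deposited values were log expression values from RMA (robust multi-array average), taken as log2, and ran from 3.24 to 14.54 with array medians between 5.85 and 5.95. Arrays correlated at r of 0.984 or more. Levels of different probe sets are not comparable, so all comparisons are within a probe set. The interquartile range of the values within an array was 1.97 to 2.10 in HCR sedentary rats and 2.14 to 2.21 in LCR sedentary rats, so these groups differed in spread across the whole array. Array medians did not overlap between these groups either, at 5.90 to 5.95 in HCR sedentary and 5.85 to 5.89 in LCR sedentary rats. Xist, the RNA that silences an X chromosome in females, had values of only 3.76 to 4.94 on all 4 of its probe sets in rat 5 of the HCR sedentary group, while the other 15 rats had at least 7.56. The Y-linked Eif2s3y read 3.53 in that rat and 3.33 to 3.50 in the others. Uty, also Y-linked, read 6.15 in that rat on its brighter probe set, lower than the 6.92 to 7.36 of the others. On its dimmer probe set Uty read 5.24 in that rat and 5.04 to 5.29 in the others. The Y-linked Sry read 5.42 in that rat and 5.13 to 5.42 in the others. The array of HCR sedentary rat 5 therefore went against its female label for Xist, and called line differences are also given without it. Myl2, the regulatory light chain of ventricular myosin, averaged 14.30, near the top of the range.

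Timp3 and Timp4 were higher in HCR than in LCR ventricles when the line difference was averaged over trained and sedentary rats, by 1.18-fold and 1.22-fold. Mmp15 was lower in HCR than in LCR ventricles of sedentary rats, at 0.827-fold. No member gene passed the test for a training difference in either line or on average, or for a difference between lines in the response to training. The other 6 genes passed no comparison on the probe set that stood for them.

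**Figure D1:**
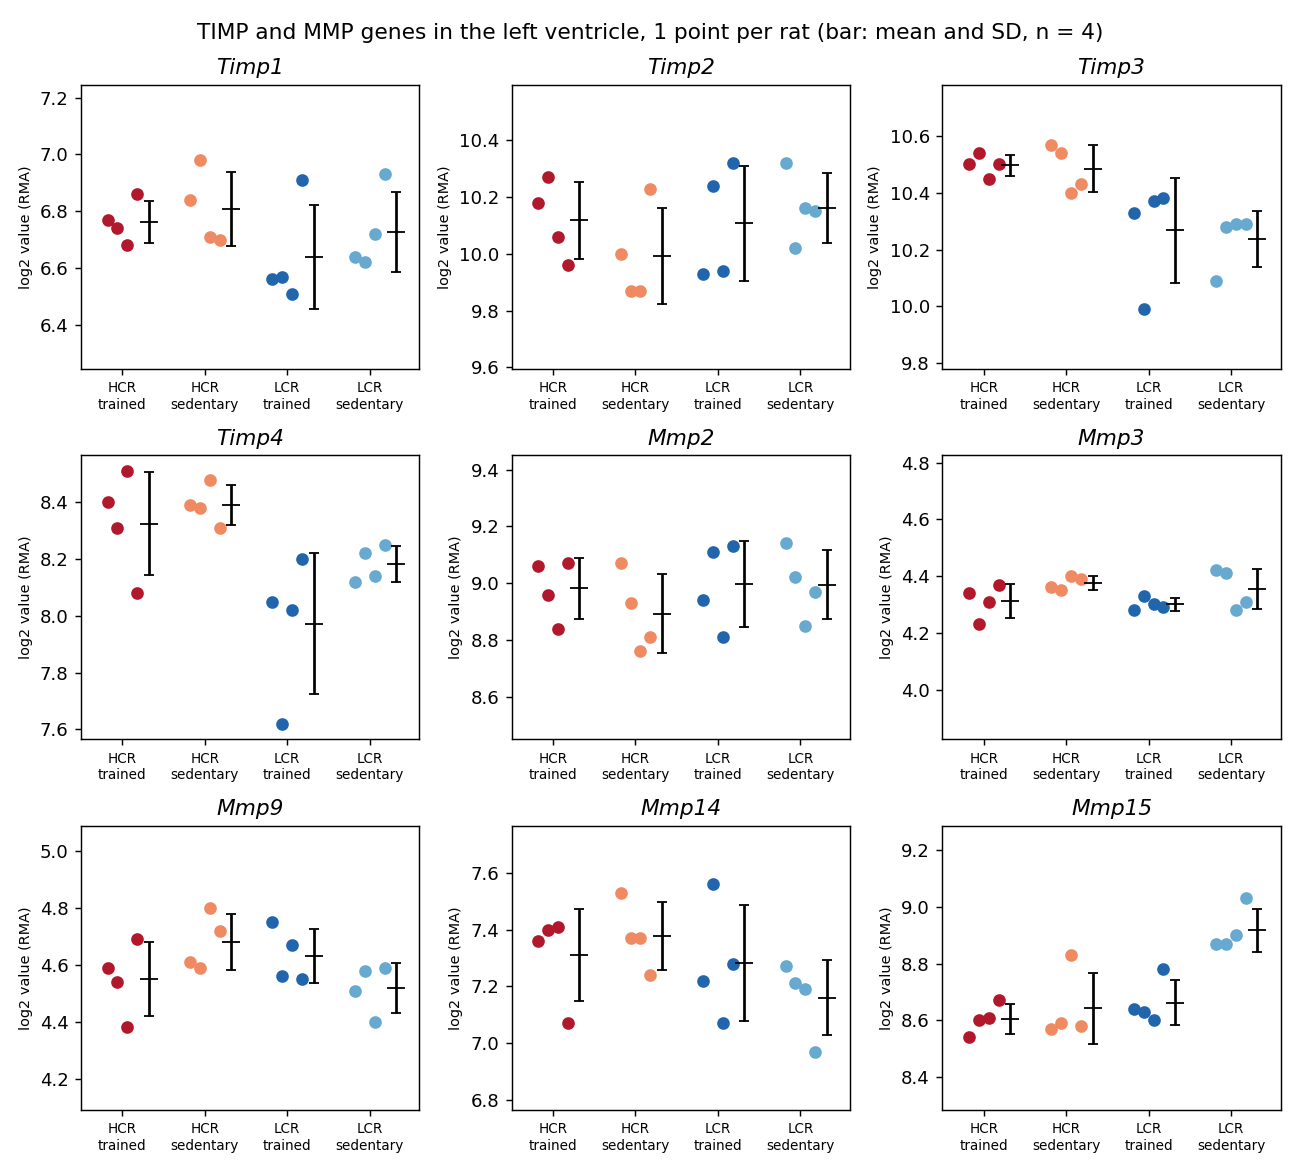
Log2 values (RMA) of the 9 genes on the probe set that stands for each, 1 point per rat, by group (HCR trained, HCR sedentary, LCR trained, LCR sedentary), with bars for the mean and SD of 4 rats. Every panel spans the same range of log2 units. Timp3 lies at 10.40 to 10.57 in HCR rats and 9.99 to 10.38 in LCR rats, and Mmp15 is highest in LCR sedentary rats.

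Timp3 encodes the inhibitor that is anchored in the matrix. Its brightest probe set, 1389836_a_at, read 10.50, 10.54, 10.45 and 10.50 in HCR trained rats and 10.57, 10.54, 10.40 and 10.43 in HCR sedentary rats. It read 10.33, 9.99, 10.37 and 10.38 in LCR trained rats and 10.09, 10.28, 10.29 and 10.29 in LCR sedentary rats. All 8 HCR rats were above all 8 LCR rats, with LCR trained rat 2 lowest, and trained and sedentary rats of a line overlapped. The mean was 10.49 ± 0.059 in HCR and 10.25 ± 0.14 in LCR (SD, n = 8 each). The line difference averaged over training was 0.24 ± 0.06 log2 (SE; 95% interval 0.12 to 0.36; limma adjusted p = 0.0312). Complete separation in the same direction occurred in 0.174% of all probe sets.

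The same Timp3 probe set differed between lines by 0.25 ± 0.08 log2 in sedentary rats (limma adjusted p = 0.0737) and by 0.23 ± 0.08 log2 in trained rats (limma adjusted p = 0.499). Neither passed, although the rats of both lines did not overlap in either comparison, as for 10.2% of all probe sets in sedentary rats and 1.61% in trained rats. With quantile-normalized values the sedentary difference was 0.34 log2 and passed (limma adjusted p = 0.0304). The training difference was 0.01 log2 in HCR (95% interval -0.16 to 0.18) and 0.03 log2 in LCR (95% interval -0.14 to 0.20). The averaged line difference no longer passed without HCR trained rat 6 (adjusted p = 0.0552), HCR sedentary rat 4 (0.0661) or LCR sedentary rat 6 (0.0507). Without HCR sedentary rat 5 it was 0.25 log2 (limma adjusted p = 0.0461), and without LCR trained rat 2 it was 0.19 log2 (0.0186). With arrays centred on their medians it was 0.20 log2 (limma adjusted p = 0.0610), and with the interquartile range of each array as a covariate it was 0.33 log2 (0.0508).

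The other 3 Timp3 probe sets were also higher on average in HCR, and none of them passed. Probe set 1375138_at read 9.52 to 9.98 (median 9.70) in HCR and 9.04 to 9.72 (median 9.56) in LCR, a difference of 0.23 ± 0.09 log2 (limma adjusted p = 0.141). For 1372926_at the range was 6.00 to 6.65 in HCR and 5.70 to 6.44 in LCR, with a difference of 0.24 ± 0.12 log2 (limma adjusted p = 0.228). The dimmest, 1368989_at, read 5.68 to 6.16 in HCR and 5.51 to 6.10 in LCR, a difference of 0.17 ± 0.08 log2 (limma adjusted p = 0.232). The lines overlapped on each of these. Across the 16 arrays the Timp3 probe sets correlated with each other at r of 0.59 to 0.86. These probe sets read the same RNA samples, so their common sign is not a repeat of the comparison.

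**Figure D2:**
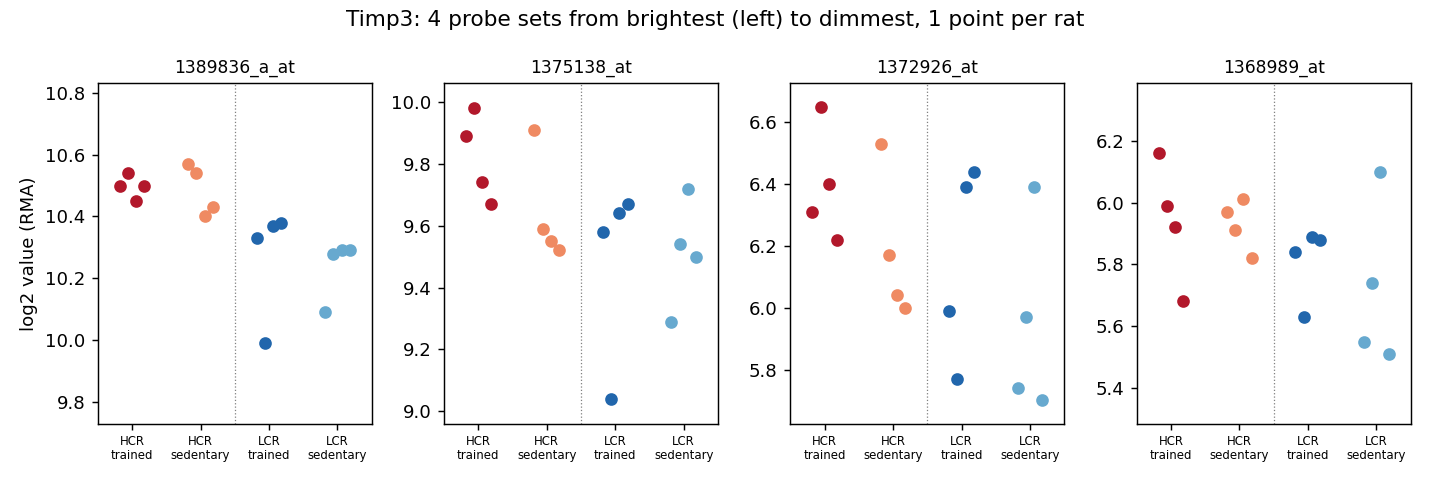
Log2 values (RMA) of the 4 Timp3 probe sets, from the brightest at left to the dimmest at right, 1 point per rat and group, each panel with its own origin and the same span. Only on the brightest do the 8 HCR rats and the 8 LCR rats not overlap.

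The start of Timp3 is shown because it was the member whose lines did not overlap. The Mmp15 start is shown beside it because that gene differed in the opposite direction. The RefSeq table of rat promoters (build GRCr8) held 6 of the 9 members. Both windows are the 250 bases before the annotated start, printed 5′ to 3′ on the strand of the gene: Timp3 at chr7:19459559-19459808 on the minus strand and Mmp15 at chr19:9691001-9691250 on the minus strand. Capitals mark GC boxes (GGGCGG, or CCGCCC for the opposite strand) and a CCAAT box (here ATTGG, its reverse complement).
Timp3: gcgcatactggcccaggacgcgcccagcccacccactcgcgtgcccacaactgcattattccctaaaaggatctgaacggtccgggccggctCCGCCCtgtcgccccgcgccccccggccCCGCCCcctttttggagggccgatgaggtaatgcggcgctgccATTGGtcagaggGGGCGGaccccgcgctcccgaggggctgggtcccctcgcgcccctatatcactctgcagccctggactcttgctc
Mmp15: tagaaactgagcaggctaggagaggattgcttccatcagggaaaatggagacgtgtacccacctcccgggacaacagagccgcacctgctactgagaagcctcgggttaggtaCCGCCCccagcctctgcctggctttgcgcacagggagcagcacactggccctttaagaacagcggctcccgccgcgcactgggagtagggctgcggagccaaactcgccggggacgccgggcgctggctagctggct

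The Timp3 window was 69.6% G and C and held 3 GC boxes and 1 CCAAT box. Counted from the start, with -1 the base before it, the GC boxes began at -158, -130 and -75 and the CCAAT box at -87. The Mmp15 window was 63.6% G and C and held 1 GC box, at -137. Over 33469 promoter windows of the same length the median G and C content was 51.2%, and a GC box on either strand was present in 30.5% and CCAAT in 34% of them. AP-1 (TGANTCA), through which cytokines are known to induce several MMP genes, and TATAAA were in neither window, and in 6.34% and 12.9% of all windows. Among the members in the table, Mmp3 alone held TGANTCA and TATAAA, at -71 and -32. The windows of Timp1, Timp4 and Mmp3 had 250, 146 and 14 of their 250 bases inside the span given for the gene itself in the RefSeq gene table, so those windows are not wholly upstream and are not printed. These matches describe letters and not binding.

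Timp4 encodes the member of the inhibitor family that is most characteristic of the heart. Its probe set read 8.40, 8.31, 8.51 and 8.08 in HCR trained rats and 8.39, 8.38, 8.48 and 8.31 in HCR sedentary rats. It read 8.05, 7.62, 8.02 and 8.20 in LCR trained rats and 8.12, 8.22, 8.14 and 8.25 in LCR sedentary rats. HCR trained rat 6 fell among the LCR rats, LCR trained rat 2 was lowest of all, and the other 7 HCR rats were above every LCR rat. The mean was 8.36 ± 0.132 in HCR and 8.08 ± 0.202 in LCR (SD, n = 8 each), an averaged line difference of 0.28 ± 0.07 log2 (SE; 95% interval 0.13 to 0.44; limma adjusted p = 0.0449).

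The Timp4 line difference was 0.21 ± 0.11 log2 in sedentary rats (limma adjusted p = 0.201), where the groups did not overlap. HCR sedentary rats lay wholly above LCR sedentary rats on 10.2% of all probe sets. In trained rats the Timp4 line difference was 0.35 ± 0.11 log2 (limma adjusted p = 0.371), where the groups overlapped. Neither passed. Trained minus sedentary was -0.07 log2 in HCR (95% interval -0.29 to 0.16) and -0.21 log2 in LCR (95% interval -0.43 to 0.01). The averaged call was lost when any of 13 of the 16 rats was left out. It was kept without HCR trained rat 6, LCR trained rat 2 or LCR trained rat 4. Without HCR sedentary rat 5 the averaged difference was 0.27 log2 (limma adjusted p = 0.0919), and with arrays centred on their medians it was 0.25 log2 (0.0712). With the interquartile range of each array as a covariate it was 0.40 log2 (0.0839), and with rat number as a block 0.22 log2 (0.0979).

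Timp3 and Timp4 went together across the 16 arrays, with r = 0.73 and rho = 0.63, and with r = 0.60 after group means were removed. The other Timp3 probe sets had r with Timp4 of 0.66 (1375138_at), 0.50 (1368989_at) and 0.38 (1372926_at). Other pairs went further after group means were removed. Mmp9 1369166_at with Mmp14 1378225_at had r = 0.77, and the brightest Timp3 probe set with Mmp2 1369825_at had r = -0.72. The arrays share their line, training group and normalization, so these values are a description. LCR trained rat 2 was lowest on Timp4 and on the brightest Timp3 probe set.

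**Figure D3:**
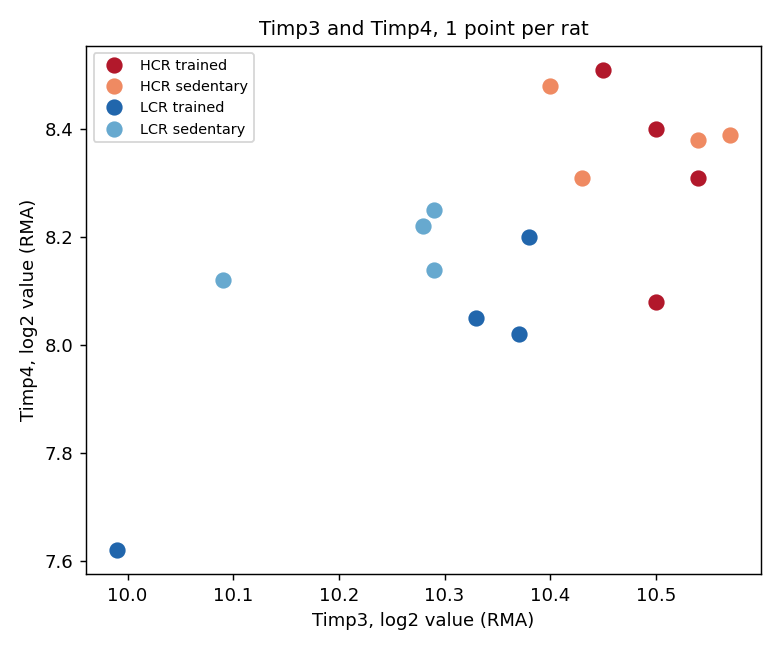
Timp4 against Timp3 (log2 values, RMA), 1 point per rat, coloured by group. HCR rats lie at 10.40 or more on Timp3, LCR rats at 10.38 or less, and LCR trained rat 2 lies lowest on both axes at 9.99 and 7.62.

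The other 2 inhibitors passed no comparison. Timp1, an inducible inhibitor that binds MMP9 and many other MMPs, read 6.68 to 6.98 (median 6.75) in HCR and 6.51 to 6.93 (median 6.63) in LCR. Its averaged line difference was 0.10 ± 0.07 log2 (limma adjusted p = 0.352), and the lines overlapped. Timp2, the partner of MMP14 in the activation of MMP2, read 9.87 to 10.27 (median 10.03) in HCR and 9.93 to 10.32 (median 10.15) in LCR on probe set 1386940_at. The averaged difference of Timp2 was -0.08 ± 0.07 log2 there (limma adjusted p = 0.525) and 0.14 ± 0.08 log2 on 1367823_at (0.290), so its probe sets differed in sign. They correlated at r = 0.45 across arrays and at r = 0.79 after group means were removed.

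Mmp15 encodes a membrane-type protease that, like MMP14, can activate the proenzyme of MMP2. Its probe set read 8.54, 8.60, 8.61 and 8.67 in HCR trained rats and 8.57, 8.59, 8.83 and 8.58 in HCR sedentary rats. It read 8.64, 8.63, 8.60 and 8.78 in LCR trained rats and 8.87, 8.87, 8.90 and 9.03 in LCR sedentary rats. The 4 LCR sedentary rats were above all other 12 rats, and the remaining groups overlapped. HCR sedentary rats lay wholly below LCR sedentary rats on 8.08% of all probe sets. In sedentary rats the mean was 8.64 ± 0.127 in HCR and 8.92 ± 0.0747 in LCR (SD, n = 4 each), a line difference of -0.27 ± 0.07 log2 (95% interval -0.41 to -0.13; limma adjusted p = 0.0340).

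In trained rats the line difference of Mmp15 was -0.06 ± 0.07 log2 (limma adjusted p = 0.932). Averaged over training it was -0.17 ± 0.05 log2 (limma adjusted p = 0.0543), which did not pass, while without HCR sedentary rat 5 it was -0.20 log2 and passed (0.0267). Trained minus sedentary was -0.25 ± 0.07 log2 in LCR, where the limma adjusted p was 0.479. The LCR groups did not overlap on Mmp15, as for 1.5% of all probe sets in this direction, and its p-value ranked 83 of 31042. In HCR it was -0.04 ± 0.07 log2 (limma adjusted p = 0.811). The difference between lines in the training difference was 0.22 ± 0.09 log2 (95% interval 0.02 to 0.41; limma adjusted p = 0.495), so a training response that differs between lines was not shown.

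The sedentary line difference of Mmp15 no longer passed without HCR sedentary rat 3, 4 or 6 or LCR sedentary rat 3, 5 or 6 (limma adjusted p of 0.0505 to 0.105). Without HCR sedentary rat 5 it was -0.34 log2 (0.0343). After quantile normalization of the summarised values it was -0.15 log2 (limma adjusted p = 0.248). With the interquartile range of each array as a covariate the estimate stayed at -0.27 log2 and the limma adjusted p was 0.506.

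Mmp2 encodes gelatinase A, which cuts denatured collagen and basement membrane collagen. Its brighter probe set, 1370301_at, read 9.06, 8.96, 8.84 and 9.07 in HCR trained rats and 9.07, 8.93, 8.76 and 8.81 in HCR sedentary rats. It read 8.94, 9.11, 8.81 and 9.13 in LCR trained rats and 9.14, 9.02, 8.85 and 8.97 in LCR sedentary rats. All groups overlapped, and the averaged line difference was -0.06 ± 0.06 log2 (95% interval -0.19 to 0.07; limma adjusted p = 0.588).

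The dim Mmp2 probe set, 1369825_at, differed from the brighter one. It read 5.83, 5.93, 5.97 and 5.95 in HCR sedentary rats and 5.66, 5.64, 5.37 and 5.60 in LCR sedentary rats, which did not overlap. Such a gap in this direction occurred on 10.2% of all probe sets. The sedentary line difference was 0.35 ± 0.10 log2 (limma adjusted p = 0.0490), opposite in sign to the -0.10 ± 0.09 log2 of the brighter probe set (0.448). With the interquartile range of each array as a covariate it was 0.06 log2 (limma adjusted p = 0.905), and without HCR sedentary rat 5 it was 0.34 log2 (0.130). The call was lost when any of 11 of the 16 rats was left out. The Mmp2 probe sets correlated at r of 0.14 after group means were removed.

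Mmp14, the membrane-type protease that activates the MMP2 proenzyme, was higher on average in HCR sedentary rats but did not pass. Probe set 1367860_a_at read 7.53, 7.37, 7.37 and 7.24 in HCR sedentary rats and 7.27, 7.21, 7.19 and 6.97 in LCR sedentary rats, which overlapped by 1 rat. The difference was 0.22 ± 0.10 log2 (limma adjusted p = 0.186), and in trained rats it was 0.02 ± 0.10 log2 (0.989). On 1378225_at no difference in any comparison exceeded 0.03 log2 in size.

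Mmp9, gelatinase B, which neutrophils and macrophages carry, and Mmp3, stromelysin, were dim. Mmp9 on 1398275_at read 4.61, 4.59, 4.80 and 4.72 in HCR sedentary rats and 4.51, 4.58, 4.40 and 4.59 in LCR sedentary rats. These groups touched without crossing, and the difference of 0.16 ± 0.07 log2 did not pass (limma adjusted p = 0.170). By unrounded values the groups did not overlap, as for 10.2% of all probe sets in this direction. The difference between lines in the training difference of Mmp9 was -0.24 ± 0.10 log2 (limma adjusted p = 0.495). The other Mmp9 probe set, 1369166_at, read 4.16 to 4.41 over all rats. Mmp3 read 4.23 to 4.42 over all rats, and its averaged line difference was 0.01 ± 0.03 log2 (limma adjusted p = 0.839). At such low signal a change in RNA gives a small change in value, so the intervals of Mmp3 and Mmp9 bound the signal and not the RNA.

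The order of the group means differed from gene to gene. For Timp3 it ran HCR trained, HCR sedentary, LCR trained and LCR sedentary, and the only neighbours whose rats did not overlap were HCR sedentary and LCR trained. For Timp4 it ran HCR sedentary, HCR trained, LCR sedentary and LCR trained, with overlap between all neighbours. For Mmp15 it ran LCR sedentary, LCR trained, HCR sedentary and HCR trained, and only LCR sedentary and LCR trained rats did not overlap. For the other 6 genes all neighbours overlapped.

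Counted by gene, 1 of the 9 members was called in sedentary rats (Mmp15, lower in HCR), where 4.99% of all probe sets were called and 2.98% were called lower. Of all 14217 genes on their brightest probe set, 285 were called higher and 610 lower there. The background over all probe sets was 0.361% (112 probe sets) when HCR sedentary rat 5 was left out, and Mmp15 was still the 1 member called. In trained rats 0 of 9 were called, with a background of 0.0966%, and 2 of the 9 had an unadjusted limma p under 0.05, as did 7.33% of all probe sets. Such a p was found in sedentary rats for 3 of the 9 and for 8612 of all 31042 probe sets. For the averaged line difference it was found for 3 of the 9 and for 24.1% of all probe sets. For the line difference averaged over training 2 of 9 were called (Timp3 and Timp4, both higher in HCR), against 3.84% of all probe sets called and 1.45% called higher. Of all 14217 genes, 219 were called higher and 481 lower in that comparison. Without HCR sedentary rat 5 the members called on average were Timp3 and Mmp15, with 1.7% of all probe sets called. The median line difference was 0.08 log2 over the members and -0.02 log2 over all 14217 genes in sedentary rats, and 0.04 and -0.01 log2 when averaged. With 9 genes, 1 call moves such a share by more than the whole background.

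Training left 0 of 9 members called in HCR (background 0%), 0 of 9 in LCR (background 0.00322%) and 0 of 9 on average (background 0.00644%). The difference between lines in the training difference called 0 of 9 (background 0%). At an unadjusted p under 0.05 these limma counts were 0, 1, 1 and 2 of 9, while 13.9%, 5.57%, 9.24% and 9.88% of all probe sets had such a p. The genes were Mmp15 in LCR, Mmp15 on average, and Mmp9 and Mmp15 for the difference between lines.

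**Figure D4:**
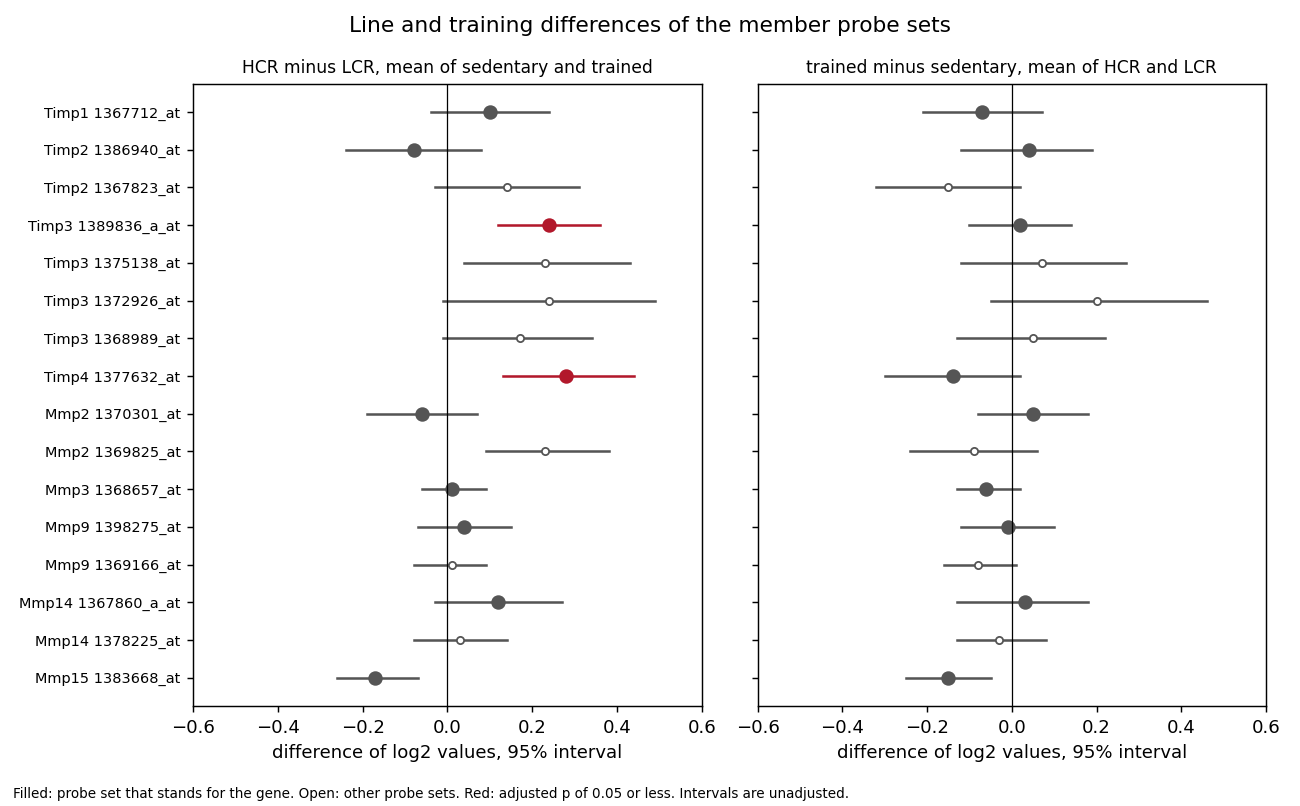
Differences of log2 values with unadjusted 95% intervals for the 16 probe sets, HCR minus LCR averaged over training at left and trained minus sedentary averaged over lines at right. Filled points stand for a gene, open points are its other probe sets, and red marks an adjusted p of 0.05 or less. Timp3 at 0.24 and Timp4 at 0.28 are the only red points, and none is red for training.

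**Figure D5:**
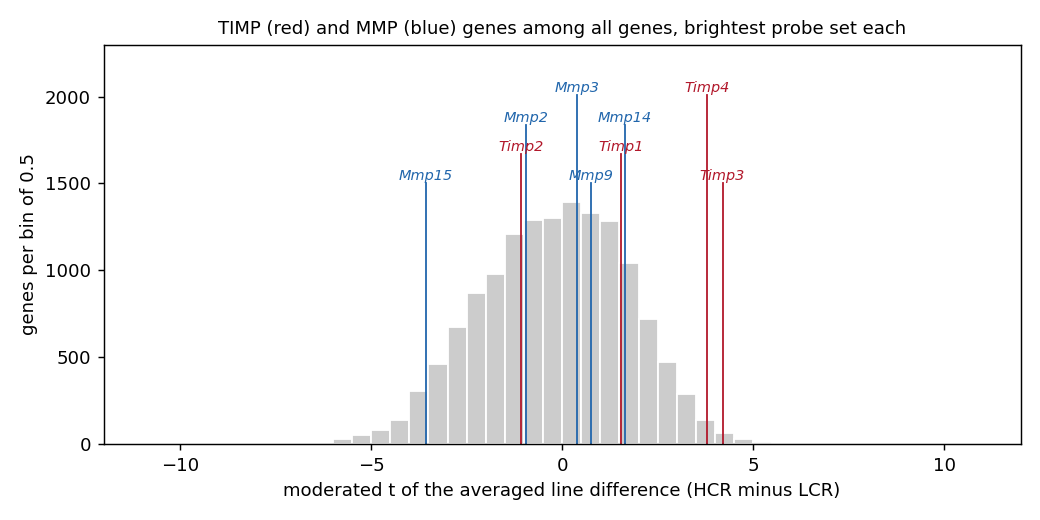
Histogram of the moderated t of the line difference (HCR minus LCR) averaged over training for all 14217 genes in bins of 0.5, with lines of differing height only to space the labels at the 9 members. Timp3 lies at 4.20 and Timp4 at 3.80 on the HCR side, Mmp15 at -3.57 on the LCR side, and the other 6 lie between -1.08 and 1.64.

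Ratios of a protease to an inhibitor were followed as differences of log2 values within a rat, centred on the median of the 16 rats, without a test. Mmp2 to Timp3 lay between -0.20 and 0.01 (median -0.15) in HCR and between -0.13 and 0.56 (median 0.14) in LCR. Mmp2 to Timp4 lay between -0.44 and 0.27 in HCR and between 0 and 0.78 in LCR. The ranges of both ratios overlapped between lines. On the Mmp2 probe set used here, 1370301_at, the averaged line difference was -0.06 log2, so most of each shift lay in the inhibitor. The other Mmp2 probe set, 1369825_at, had an averaged line difference of 0.23 ± 0.07 log2 (limma adjusted p = 0.0661), near the 0.24 log2 of Timp3. Ratios with it were not computed, so these shifts hold only for the brighter Mmp2 probe set. Mmp2 to Timp2 had a median of 0.02 in HCR and -0.02 in LCR. Mmp14 to Timp2 lay between -0.15 and 0.38 in HCR and between -0.34 and 0.16 in LCR.

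Lists of related genes, chosen with earlier results of these data known, were read in the same fit. Their counts stand against the same backgrounds, 4.99% of all probe sets called in sedentary rats and 3.84% on average. Of 17 other MMP genes 12 were measured, and in sedentary rats Mmp28 was higher in HCR by 0.25 ± 0.06 log2 (limma adjusted p = 0.0407). Mmp24, a membrane-type protease, was lower in HCR by -0.33 ± 0.07 log2 in sedentary rats (limma adjusted p = 0.0275) and by -0.26 ± 0.05 log2 when averaged (0.0138). Mmp24 read 8.67 to 8.85 in HCR and 8.78 to 9.14 in LCR, and HCR rats overlapped with LCR trained but not with LCR sedentary rats. The remaining 10 of these genes did not pass. Of 27 ADAM and ADAMTS genes 19 were measured, and Adam8, a membrane-bound protease of myeloid cells, was higher in HCR by 0.37 ± 0.06 log2 in sedentary rats (limma adjusted p = 0.0150) and by 0.29 ± 0.05 log2 when averaged (0.00514). Adam17, whose product TIMP3 inhibits, had an averaged difference of -0.01 log2 (limma adjusted p = 0.901).

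Of 20 genes for activators and other inhibitors 17 were measured and none passed in any of the 7 comparisons. The lowest p-values were those of Pcsk6 (0.23 log2, limma adjusted p = 0.316) and Spock1 (0.11 log2, 0.334) for the averaged line difference. For training averaged over lines they were Thbs2 (-0.12 log2, 0.570) and Pcsk5 (-0.07 log2, 0.712). Of 20 matrix substrates, all measured, 1 was called: Lum, the collagen-binding proteoglycan lumican, which was lower in HCR sedentary rats by -0.41 ± 0.11 log2 (limma adjusted p = 0.0403). Of 20 cytokines and transcription factors known to induce MMP or TIMP genes, all measured, Tgfb3, a growth factor that promotes matrix deposition, was lower in HCR by -0.36 ± 0.07 log2 in sedentary rats (limma adjusted p = 0.0244) and by -0.33 ± 0.05 log2 when averaged (0.00525). Tgfb3 read 6.78 to 7.32 in HCR and 7.28 to 7.52 in LCR. It was the only one of its list to pass, so a single gene of 20 was called in both lists in sedentary rats, a share near the background. No gene of these 5 lists passed in trained rats, for training or for the difference between lines.

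Without HCR sedentary rat 5 the sedentary calls of Mmp28 (0.24 log2, limma adjusted p = 0.108), Mmp24 (-0.30 log2, 0.0861), Lum (-0.45 log2, 0.0825) and Tgfb3 (-0.29 log2, 0.0742) were lost, and that of Adam8 stayed (0.36 log2, 0.0485). The averaged calls of Mmp24 (-0.24 log2, limma adjusted p = 0.0328), Adam8 (0.28 log2, 0.0122) and Tgfb3 (-0.29 log2, 0.00852) stayed. Adam8 and Mmp28 were dim, with means of 5.22 and 5.56, below the median of 5.9 over all probe sets. Tgfb3, Mmp24 and Lum, lower in HCR, were brighter at 7.24, 8.89 and 10.05. With the array interquartile range as a covariate only 2 of all probe sets were called in sedentary rats. The part of array spread in these calls was not tested. Adam8 has 2 probe sets and Mmp24 has 3, and only the brightest was read.

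Markers of other cell types were set beside the called members. In ventricle tissue fewer cells of a type and less RNA per cell cannot be told apart. Smooth muscle and pericyte markers were higher on average in HCR in 7 of 7 genes, with 1 passing (Acta2, 0.31 ± 0.06 log2 averaged, limma adjusted p = 0.0186; 0.28 log2 and 0.0377 without HCR sedentary rat 5), against 3.84% of all probe sets. Acta2 was also the 1 called in sedentary rats (0.35 log2, limma adjusted p = 0.0421), against 4.99% of all probe sets. That sedentary call was lost without HCR sedentary rat 5 (0.28 log2, limma adjusted p = 0.126). The summed linear level of the smooth muscle and pericyte markers was 1430 to 1830 in HCR and 1290 to 1750 in LCR. Fibroblast markers were lower on average in HCR in 9 of 10 genes, of which 0 passed when averaged and 4 had an unadjusted p under 0.05, as did 24.1% of all probe sets, with sums of 13900 to 15300 in HCR and 14000 to 17900 in LCR. In sedentary rats, where Mmp15 was called, the fibroblast sums were 13900 to 14600 in HCR and 14600 to 17900 in LCR. There 9 of the 10 genes were lower in HCR, with a median of -0.24 log2. Of the 10 genes 4 had an unadjusted limma p under 0.05, as did 8612 of all 31042 probe sets. The 1 that passed was Lum, also among the matrix substrates above, against 4.99% of all probe sets called and 2.98% called lower. Without HCR sedentary rat 5 the Lum call was lost (limma adjusted p = 0.0825). Atrial markers were higher on average in HCR in 3 of 4 genes, with a median of 0.26 log2, 2 with an unadjusted p under 0.05 and 1 passing (Nppa, the precursor of atrial natriuretic peptide). Their sums were 2930 to 7370 (median 4660) in HCR and 1540 to 3780 (median 2570) in LCR. Nppa, which is also on the cardiomyocyte list, made up most of these linear sums, with medians of 11.95 log2 in HCR and 11.03 log2 in LCR. The sums therefore largely repeat that 1 gene. The part of these cell types in the Timp3, Timp4 and Mmp15 results was not tested. Summed cardiomyocyte markers were 117000 to 120000 in HCR and 115000 to 118000 in LCR. The arrays give no detection calls, so no marker can be named absent.

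For each member the genes with the most similar profile over the 16 arrays were found among the other 14216, as a description. Timp3 went most closely with Enpep, an aminopeptidase that cleaves angiotensin (r = 0.85, rho = 0.84), and Zfp318 (r = 0.83, rho = 0.80). Both were themselves higher in HCR, Enpep by 0.29 log2 (limma adjusted p = 0.00925) and Zfp318 by 0.46 log2 (0.00692). Timp4 went with Srgn, the proteoglycan serglycin (r = 0.84, rho = 0.91), and Myom2, a protein of the sarcomere's M-band (r = 0.82, rho = 0.72). Neither was called between lines (Srgn 0.13 log2, limma adjusted p = 0.0551, and Myom2 0.11 log2, 0.145). Without the 2 arrays farthest from the Timp4 median, r with Myom2 was 0.58. Mmp15 went with Sap130 (r = 0.87, rho = 0.76) and Cfap20 (r = 0.87, rho = 0.89). Of these Cfap20 was lower in HCR by -0.35 log2 (limma adjusted p = 0.0192), and Sap130 was not called (-0.05 log2, 0.553). With HCR sedentary rat 5 left out, Enpep (0.29 log2, limma adjusted p = 0.0202), Zfp318 (0.46 log2, 0.0161) and Cfap20 (-0.39 log2, 0.0128) were still called. These genes were picked from the same arrays for their likeness to Timp3 or Mmp15, so their line differences are not separate support.

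The likeness of the remaining members fell, like that of Timp4, on genes that were not called between lines. Mmp2 went with Brox (r = 0.84) and with Col3a1, a fibrillar collagen (r = 0.80). Timp1 went with Fmo5 (r = 0.81) and E2f7 (r = 0.77), and Timp2 with Pqbp1 and Lmcd1 (r = 0.80 for both). Mmp14 went with Pdgfc (r = 0.77) and Prss1 (r = 0.75). The dim genes had high values too: Mmp3 with Bmp5 (r = 0.89) and Prl7a3 (r = 0.88), and Mmp9 with Agmat (r = 0.90) and Tbx3 (r = 0.87). Without the 2 arrays farthest from the median of the member, the 18 values of r lay between 0.58 and 0.89.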

How the data were processed

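Left ventricles of 16 rats were measured, 1 array per rat, and sample titles gave groups and rat numbers. The authors deposited log expression values from RMA. The submitters' processing notes name RMA and limma, without versions. No source used here gives the base, and log2 was assumed from the range of the deposited values. RMA corrects the background, quantile-normalizes probes and summarises each probe set, and it compresses differences near background. The table held 31099 probe sets. Without its 57 Affymetrix controls, 31042 entered the tests, unfiltered. In the platform annotation 20826 of these had 1 gene symbol, 436 had several and 9780 had none.

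The model (limma 3.58.1 under R 4.3.3, functions lmFit, contrasts.fit and eBayes) used all 16 arrays and had a mean for each group and no covariate, which left 12 residual degrees of freedom. The 7 comparisons, all two-sided, were HCR minus LCR within sedentary and within trained rats, trained minus sedentary within each line, the difference between these training differences, and the 2 averages. P-values were adjusted by Benjamini-Hochberg over all probe sets of a comparison and called at 0.05 or less. Intervals (95%) and unadjusted p-values are from the same model. Precision is limited by the 4 arrays of a group.

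The members and the gene and marker lists were chosen with earlier results of these data known. The text names every member, each called list gene (where a list had none, the 2 of lowest p in both averaged comparisons), the 2 genes most like each member, and the array-check genes. Adam17, Myl2 and the synapsin genes were added after values were seen. Alternatives were other scalings, filters, priors, weights, a replicate block and each rat left out, with values without HCR sedentary rat 5 for named genes outside the members added after seeing the data. The model was tested on simulated data.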

Additional observations from a re-analysis of the deposited data

Results flagged for a closer look

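In groups of 4 rats, a rat was singled out when its gap to the nearest other rat exceeded Dixon's 95% critical value as a share of the group's range. Of 64 groups of a probe set, 7 held such a rat, and chance alone gives about 1 in 20, or 3.2.

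For Timp3, 1389836_a_at read 9.99 in LCR trained rat 2 and 10.33 to 10.38 in the rest of its group, and 10.09 in LCR sedentary rat 2 and 10.28 to 10.29 in the rest of that group. LCR trained rat 2 was also low on the Timp3 probe set 1375138_at, at 9.04 against 9.58 to 9.67. For Mmp15, HCR sedentary rat 5 read 8.83 and the other HCR sedentary rats 8.57 to 8.59. This is the rat whose array read low for Xist. Timp1 read 6.91 in LCR trained rat 4 and 6.51 to 6.57 in the rest of its group. Timp2 on 1367823_at read 8.12 in LCR sedentary rat 2 and 7.77 to 7.83 in the others. Mmp14 on 1367860_a_at read 7.07 in HCR trained rat 6 and 7.36 to 7.41 in the others.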

How the results depend on the processing

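Among the 9 members, the sedentary line difference called 1 gene, 2 with array weights (Timp3 added), 1 after quantile normalization (Timp3, 0.34 log2, limma adjusted p = 0.0304, in place of Mmp15), 0 with the array interquartile range as covariate and 0 to 2 with a rat left out. The averaged line difference called 2 members, but 0 with the interquartile range as covariate and 0 to 3 with a rat left out. With arrays centred on their medians it called 1, Mmp15, in place of Timp3 and Timp4. With the replicate block it called 1, Timp3. Timp3 passed in 19 of 24 alternatives for the averaged difference and Timp4 in 8 of 24, while Mmp15 passed in 17 of 25 for the sedentary difference and in 5 of 24 for the averaged one. No called difference changed sign, but 29 of the 63 pairs of a member gene and a comparison changed sign in some alternative, none of them while called. The cause of these changes was not tested.

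Over all probe sets the sedentary line difference called 1549, against 2460 with median centring, 543 after quantile normalization, 4183 with array weights, 3000 with the replicate block, 2 with the interquartile range as covariate and 35 to 1994 with a rat left out (35 without LCR sedentary rat 6, 103 without HCR sedentary rat 4 and 112 without HCR sedentary rat 5). With centring 12.1% of those calls were higher in HCR, against 40.2% as reported, and for the averaged difference 15.9% against 37.8%. In trained rats 30 were called, 11 with 1 probe set per gene and 12 to 53 with a rat left out. The averaged line difference called 1191, 723 after quantile normalization, 46 with the interquartile range as covariate and 520 to 2575 with a rat left out. Training in HCR called 0, 27 with array weights, 2 with only both groups fitted, 8 with the replicate block, 1 with the interquartile range as covariate and 0 to 39 with a rat left out. Training in LCR called 1, and 0 with 1 probe set per gene, with only both groups fitted or with the replicate block, and 1 to 4 with a rat left out. Averaged training called 2, 5 after quantile normalization, 1 with 1 probe set per gene, 0 with the replicate block, 0 with the interquartile range as covariate and 0 to 11 with a rat left out.

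Deviations from group means of same-numbered rats correlated at -0.23 to 0.34 (median 0.04, 16 pairs, 6 over 0.1). Rats of other numbers in other groups correlated at -0.41 to 0.46 (median -0.01, 80 pairs, 19 over 0.1). With so few pairs these values cannot settle whether rat numbers pair the samples. With the replicate block Timp3 was 0.17 log2 (limma adjusted p = 0.0459) and Timp4 0.22 log2 (0.0979) for the averaged line difference. Dim probe sets, those of Mmp3 and Mmp9 among them, limit what these arrays can show.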

Other observations

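In the RefSeq gene table Timp1, Timp3 and Timp4 lie inside the spans of Syn1, Syn3 and Syn2, which encode synapsins, proteins of synaptic vesicles, and Timp2 lies in none. The 6 synapsin probe sets were looked at after the TIMP values were seen. None was called in any of the 7 comparisons. For the averaged line difference Syn3 gave 0.10 ± 0.06 log2 (limma adjusted p = 0.359) where Timp3 gave 0.24 log2. The 3 Syn2 probe sets gave -0.04, 0.12 and 0.08 log2 (limma adjusted p = 0.579, 0.109 and 0.377) where Timp4 gave 0.28 log2.

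Among markers of further cell types, Nppa was higher in HCR by 1.01 ± 0.22 log2 averaged over training (limma adjusted p = 0.0217; 1.12 log2 and 0.0203 without HCR sedentary rat 5). Nppa read 11.28 to 12.78 in HCR and 10.31 to 11.63 in LCR. Cd79b, a B cell receptor component, was higher in HCR by 0.22 ± 0.05 log2 averaged over training (limma adjusted p = 0.0222). Without HCR sedentary rat 5 it was 0.22 log2 (limma adjusted p = 0.0461). Cd79b was the 1 gene called among 7 measured lymphocyte markers, against 3.84% of all probe sets. The list had no common direction: 4 markers leaned towards LCR and 3 towards HCR (median difference -0.03 log2). Cd79b was also dim, with a mean of 5.78 against a median of 5.9 over all probe sets. No marker of endothelium, macrophages, neutrophils, adipocytes, nerve, mesothelium or red cells passed in any comparison. Macrophage markers were higher on average in trained than in sedentary rats in 8 of 9 genes, none passing, with a median difference of 0.13 log2. Atrial markers were lower on average in trained than in sedentary rats in 4 of 4 genes, none passing, with a median difference of -0.47 log2, and 2 of the 4 had an unadjusted limma p under 0.05, as did 9.24% of all probe sets.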
